A study of Mus musculus with 4 samples.

Results

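The genes described here are 33 pan-neuronal and synaptic genes, measured by bulk RNA sequencing in cultures of mouse prostate fibroblasts. They were given as a list of gene symbols and are 33 of the 56748 genes in the count table. Some of them were picked for high counts in the BuOE library and the PBS-with-radiation library, so their levels in these libraries are a description and are not tested. Of the 33, 32 reached a mean of 1 CPM over the 4 libraries (counts per gene scaled to a fixed library total), as did 14365 of all genes; these are called measured. The remaining member, Chga, lay below that mean.

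The 4 libraries come from 4 conditions, 1 library each: BuOE with radiation, PBS with radiation, BuOE without radiation and PBS without radiation. Per the labels, the source was the prostate of male C57BL/6 mice of 8 to 10 weeks (the genotype field spells the strain CB57BL/6), with no engineered allele named. In the 2 irradiated groups, mice received 37.5 Gy to the pelvis under lead shielding, as fractions of 7.5 Gy over 5 days at 1.2 Gy per minute, and in the other 2 groups no radiation. The protocol text names prostates and bladders, and the source field of all 4 libraries names the prostate. The tissue was minced, digested with type I collagenase and cultured in medium with serum, and the labels call the cultured cells fibroblasts. PBS is phosphate-buffered saline, and BuOE stands in the chemical name of BMX-001, the manganese porphyrin of the series title that mimics superoxide dismutase. The labels give neither its dose nor its timing, nor whether mice or cultures received it, nor how many mice were pooled. With 1 library per condition there is no replicate and no test. Each ratio below compares 2 libraries, not 2 conditions.

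Neurons share a set of genes that other cells use little. RNA-binding proteins of the Elavl and Rbfox families control how neuronal transcripts are spliced and kept stable, neurofilaments and neuronal tubulin build the axon, and SNARE proteins with synaptotagmin drive the calcium-triggered fusion of synaptic vesicles. The prostate is innervated by autonomic neurons whose cell bodies lie in the pelvic ganglia close to the gland. The repressor REST holds many neuronal genes silent in other cells by binding a DNA motif called RE1.

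Each level is given in CPM after scaling by TMM factors, and each ratio is a log2 ratio of scaled CPM with a prior count of 2. The interval after a ratio is its exact binomial 95% interval. It covers the counting error of 2 libraries only. A gene is counted as higher or lower when its ratio passes 2-fold. The ratio of PBS with radiation over PBS is called the radiation ratio of the PBS arm, and that of BuOE with radiation over BuOE the radiation ratio of the BuOE arm. Counts summed to 25.0 M in the BuOE-with-radiation library, 35.9 M in the PBS-with-radiation library, 28.9 M in the BuOE library and 29.7 M in the PBS library.

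The label of a fibroblast culture held in part. All 11 fibroblast markers were measured, and they summed to 5407 CPM in the BuOE-with-radiation library, 9422 in the PBS-with-radiation library, 6434 in the BuOE library and 6344 in the PBS library. Epithelial markers summed to 5448 CPM with BuOE and radiation, 3356 with PBS and radiation, 4958 with BuOE and 3671 with PBS, with Krt8, a keratin of simple epithelia, between 789 and 1050.3 CPM. All 9 endothelial, 10 mural and 8 macrophage markers were measured too, and none of 7 lymphocyte markers was. The mitochondrially encoded genes took 2.65% of counts in the BuOE-with-radiation library and 0.413% to 0.883% in the others.

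The members summed to 229 CPM in the BuOE-with-radiation library (exact Poisson 95% interval 223 to 235), 475 CPM in the PBS-with-radiation library (468 to 482), 1159 CPM in the BuOE library (1147 to 1172) and 279.8 CPM in the PBS library (274 to 286). Of the 32 measured members, 29 were highest in the BuOE library and 24 were lowest in the PBS library. The choice of members fixed part of these counts. The share of all measured genes highest or lowest in these libraries is not given, so the counts only describe the members. A shared order held for 22 of the 32: the BuOE library and the PBS-with-radiation library each lay at least 2-fold above the PBS library and at least 2-fold above the BuOE-with-radiation library. Over all measured genes 178 had that order, 1.24%. The 22 summed to 50.6 CPM in the BuOE-with-radiation library, 256 in the PBS-with-radiation library, 771 in the BuOE library and 36.3 in the PBS library. The other 10 measured members summed to 178 CPM with BuOE and radiation, 218 with PBS and radiation, 386 with BuOE and 243 with PBS. They held 87% of the members' sum in the PBS library and 33.3% of it in the BuOE library. In bulk RNA, fewer cells of a type and less RNA per cell cannot be told apart.

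**Figure D1:**
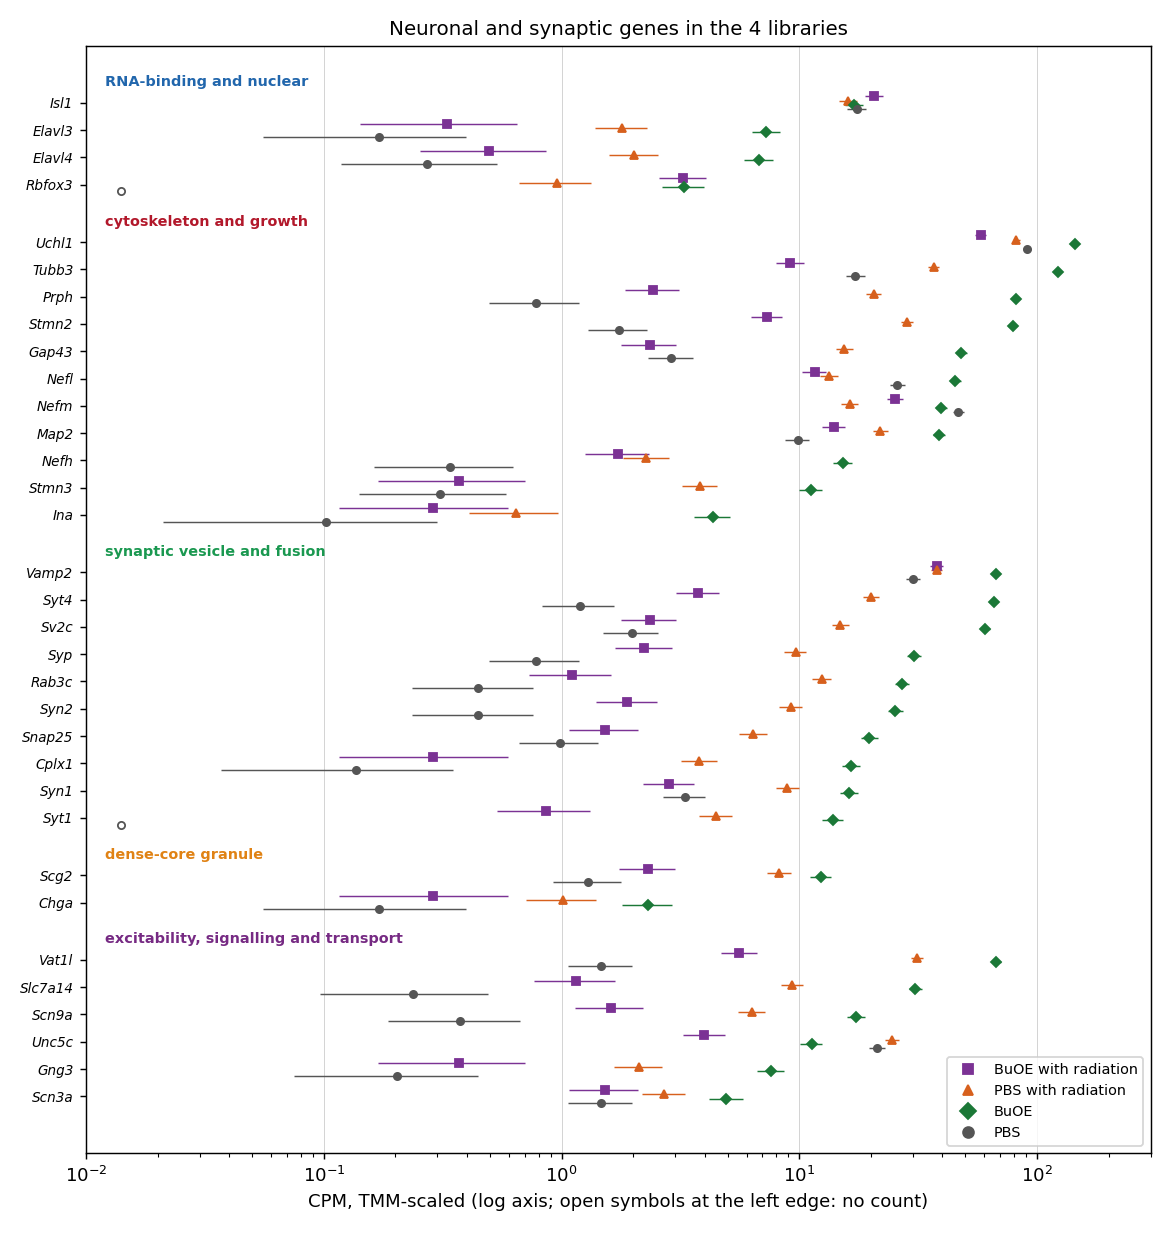
Level of each of the 33 members in each library, in TMM-scaled CPM on a log axis, grouped by role; bars are exact 95% counting intervals and open symbols stand for no count. For most members the BuOE library lies to the right, the PBS-with-radiation library next, and the BuOE-with-radiation and PBS libraries at low levels, while Isl1 keeps within 16.0 to 20.6 CPM.

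The promoters of 4 members are shown because their genes include the 2 with the steepest shared order, Cplx1 and Rab3c, and the 2 whose windows held a searched motif, Syn1 and Scg2. Each runs from 250 bases before to 50 bases after the transcription start on the gene's strand, from RefSeq on GRCm38.p6. All 4 lie on the minus strand, at chr5:108549978-108550277 (Cplx1), chr13:110280157-110280456 (Rab3c), chrX:20920869-20921168 (Syn1) and chr1:79439977-79440276 (Scg2). Capitals mark the RE1-like stretch in Syn1, the left part of that motif (on the opposite strand) in Scg2, and the cyclic AMP response element (CRE) TGACGTCA in both.
Cplx1: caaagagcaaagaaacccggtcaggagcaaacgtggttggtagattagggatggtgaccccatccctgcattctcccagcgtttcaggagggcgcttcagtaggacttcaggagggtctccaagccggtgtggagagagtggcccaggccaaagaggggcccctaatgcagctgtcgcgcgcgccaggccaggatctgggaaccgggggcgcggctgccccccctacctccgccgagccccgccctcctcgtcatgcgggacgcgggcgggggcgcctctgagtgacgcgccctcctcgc
Rab3c: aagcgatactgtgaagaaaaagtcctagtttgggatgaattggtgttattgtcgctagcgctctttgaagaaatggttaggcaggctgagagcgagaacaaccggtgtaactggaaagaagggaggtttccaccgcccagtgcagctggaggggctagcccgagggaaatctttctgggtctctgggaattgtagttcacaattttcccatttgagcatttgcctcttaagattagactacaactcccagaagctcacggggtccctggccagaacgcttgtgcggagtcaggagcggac
Syn1: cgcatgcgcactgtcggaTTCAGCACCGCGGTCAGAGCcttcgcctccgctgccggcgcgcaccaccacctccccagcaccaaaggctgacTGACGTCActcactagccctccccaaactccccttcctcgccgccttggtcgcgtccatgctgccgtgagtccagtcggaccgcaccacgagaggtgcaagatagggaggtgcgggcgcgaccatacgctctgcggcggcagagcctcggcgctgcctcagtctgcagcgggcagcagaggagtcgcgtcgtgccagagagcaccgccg
Scg2: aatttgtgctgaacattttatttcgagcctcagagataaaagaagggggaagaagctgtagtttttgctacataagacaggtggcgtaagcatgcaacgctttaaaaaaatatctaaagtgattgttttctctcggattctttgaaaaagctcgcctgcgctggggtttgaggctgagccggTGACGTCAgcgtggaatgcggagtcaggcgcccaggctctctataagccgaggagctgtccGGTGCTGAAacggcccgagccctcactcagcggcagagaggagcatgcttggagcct

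A window was found for 24 of the 33 members, and these genes had 29 windows. The RE1 motif was searched on both strands as TTCAGCACC, 2 bases of any kind and GGACAGCGC, with up to 4 mismatches in the 18 fixed letters. It was found in 1 of the 29 member windows (3.45%), that of Syn1, and in 158 of 32851 windows of all genes (0.481%). The Syn1 stretch reads TTCAGCACCGCGGTCAGAGC, begins 232 bases before the start and has 2 mismatches. Syn1 encodes synapsin I, which tethers synaptic vesicles to the cytoskeleton. The exact left part alone was in 2 member windows (6.9%, Syn1 and Scg2) and in 0.371% of all windows, and the exact right part was in none of the members' and in 0.405% of all windows. The left part of Syn1 is part of its full motif. The CRE was in 2 member windows (6.9%) and in 1.79% of all windows. It began 159 bases before the start in Syn1 and 68 before it in Scg2. Cplx1 and Rab3c hold neither motif within these letters and this window. The median GC content was 57.3% in member windows and 52.7% in all windows. No match was tested as a binding site.

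Of the 4 RNA-binding and nuclear members, Elavl3 and Elavl4 shared the order and Rbfox3 and Isl1 did not. Elavl3 encodes a neuron-restricted RNA-binding protein of the Hu family. It stood at 0.329 CPM in the BuOE-with-radiation library, 1.80 in the PBS-with-radiation library, 7.26 in the BuOE library and 0.170 in the PBS library. Its relative Elavl4 had 0.494 CPM with BuOE and radiation, 2.02 with PBS and radiation, 6.76 with BuOE and 0.272 with PBS. Both were high in the same 2 libraries and stood on 5 to 12 counts in the others. The radiation ratio of Elavl3 was 2.97 (2.10 to 5.07) in the PBS arm and -4.21 (-5.69 to -3.46) in the BuOE arm.

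Rbfox3 encodes the splicing factor known as NeuN, a standard marker of mature neurons. It had 3.25 CPM in the BuOE-with-radiation library, 0.954 in the PBS-with-radiation library, 3.27 in the BuOE library and no count in the PBS library, where the floor used, 3 counts in that library, equals 0.102 CPM (the two-sided exact 95% interval reaches 0.126 CPM). The BuOE-with-radiation and BuOE libraries were not separated for Rbfox3 (ratio -0.01, -0.45 to 0.44). With the other library's level taken as measured and the PBS library at this floor, it was at least 31.8-fold higher with BuOE and radiation, at least 9.34-fold higher with PBS and radiation and at least 32-fold higher with BuOE. With the counting error of both libraries the exact 95% interval of the ratio began lower, at 4.66 on the log2 scale with BuOE and radiation, 2.85 with PBS and radiation and 4.67 with BuOE. Isl1 encodes a LIM homeobox factor of motor, sensory and autonomic neurons that other tissues also use. It varied little, with 20.6 CPM in the BuOE-with-radiation library, 16.0 in the PBS-with-radiation library, 17.0 in the BuOE library and 17.4 in the PBS library. Its widest ratio was 0.36 (0.18 to 0.54), for BuOE with radiation over PBS with radiation.

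The 11 cytoskeleton and growth members split by gene. Prph encodes peripherin, the intermediate filament of peripheral neurons. It stood at 2.43 CPM in the BuOE-with-radiation library, 20.6 in the PBS-with-radiation library, 81.7 in the BuOE library and 0.783 in the PBS library. That gave a radiation ratio of 4.60 (4.12 to 5.38) in the PBS arm and -5.03 (-5.47 to -4.70) in the BuOE arm. Stmn2 encodes a microtubule regulator of growing axons, and it had 7.28 CPM with BuOE and radiation, 28.4 with PBS and radiation, 78.9 with BuOE and 1.74 with PBS. Its relative Stmn3 had 0.370 CPM in the BuOE-with-radiation library, 3.82 in the PBS-with-radiation library, 11.2 in the BuOE library and 0.307 in the PBS library. Stmn2 in the BuOE-with-radiation library was above its PBS level by 2.03 (1.61 to 2.55), while for Stmn3 the interval of that ratio held 0 (0.23, -1.23 to 1.78).

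Gap43, a protein of growth cones and regenerating axons, had 2.35 CPM in the BuOE-with-radiation library, 15.4 in the PBS-with-radiation library, 48.1 in the BuOE library and 2.89 in the PBS library. Tubb3, the neuronal beta tubulin, had 9.18 CPM with BuOE and radiation, 36.7 with PBS and radiation, 122 with BuOE and 17.2 with PBS. Both genes had their lowest value in the BuOE-with-radiation library, but for Gap43 it was not separated from the PBS library (ratio -0.30, -0.81 to 0.20). Tubb3 in the BuOE-with-radiation library was below its PBS level by a ratio of -0.90 (-1.14 to -0.68). Tubb3 passed 2-fold narrowly for PBS with radiation over PBS (1.09, 0.95 to 1.25). Map2, a microtubule protein of dendrites, also ran narrower, with 14.0 CPM in the BuOE-with-radiation library, 21.9 in the PBS-with-radiation library, 38.7 in the BuOE library and 9.84 in the PBS library. Uchl1, a ubiquitin hydrolase abundant in neurons, had 58.0 CPM with BuOE and radiation, 81.9 with PBS and radiation, 144 with BuOE and 90.5 with PBS. It was the highest member per kilobase of transcript in all 4 libraries, between 49.3 and 123 CPM per kilobase. Its PBS-with-radiation level was a little under its PBS level (ratio -0.15, -0.22 to -0.07).

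The neurofilament genes and Ina did not share 1 order. The light chain Nefl had 11.6 CPM in the BuOE-with-radiation library, 13.3 in the PBS-with-radiation library, 45.3 in the BuOE library and 25.8 in the PBS library. The medium chain Nefm had 25.3 CPM with BuOE and radiation, 16.3 with PBS and radiation, 39.6 with BuOE and 46.6 with PBS, so it was highest in the PBS library. The heavy chain Nefh had 1.73 CPM with BuOE and radiation, 2.27 with PBS and radiation, 15.2 with BuOE and 0.341 with PBS, so it was highest in the BuOE library. Ina, alpha-internexin, had 0.288 CPM in the BuOE-with-radiation library, 0.646 in the PBS-with-radiation library, 4.32 in the BuOE library and 0.102 (3 counts) in the PBS library. For BuOE with radiation over PBS with radiation Ina passed 2-fold narrowly (-1.01, -2.63 to 0.10), on 7 and 23 counts. Its place in the shared order thus rests on few counts. The radiation ratio in the PBS arm was thus -0.95 (-1.12 to -0.79) for Nefl and -1.52 (-1.66 to -1.38) for Nefm, but 2.52 (1.79 to 3.85) for Nefh and 2.08 (0.93 to 5.04) for Ina. Nefl and Nefm overlap on opposite strands in the annotation, and the strand setting of the counting is not given, so reads of the pair cannot be fully told apart.

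The 10 synaptic vesicle and fusion members largely ran together. In the radiation comparison of the PBS arm all 10 had a ratio above 0 (median 3.76), and in the BuOE arm none did (median -3.82). The medians of all genes were 0.00 in the PBS arm and -0.03 in the BuOE arm. As the choice of members fixed part of these signs and the share of all genes above 0 is not given, they only describe the members. Syt1 encodes the calcium sensor of fast transmitter release. It had 0.864 CPM in the BuOE-with-radiation library, 4.46 in the PBS-with-radiation library, 13.8 in the BuOE library and no count in the PBS library. With levels as measured and the PBS library at the floor of 3 counts, it was at least 8.46-fold higher with BuOE and radiation, at least 43.7-fold higher with PBS and radiation and at least 135-fold higher with BuOE. The exact 95% interval of its ratio over PBS, with the error of both libraries, began at 2.65 on the log2 scale with BuOE and radiation, 5.13 with PBS and radiation and 6.78 with BuOE. Cplx1, complexin, clamps the fusion machinery until calcium arrives. It had 0.288 CPM with BuOE and radiation, 3.79 with PBS and radiation, 16.5 with BuOE and 0.136 with PBS, on 7 counts with BuOE and radiation and 4 with PBS. Its likeness to the shared order was 3.44, the first of 14365 measured genes. Likeness is the log2 ratio of the lower of the 2 high libraries to the higher of the 2 low ones. Some members were picked for high values in the 2 high libraries, so a rank by likeness only describes them.

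Rab3c, a small GTPase of synaptic vesicles, had 1.11 CPM in the BuOE-with-radiation library, 12.4 in the PBS-with-radiation library, 27.0 in the BuOE library and 0.443 in the PBS library. It ranked second by likeness (3.40), and counting error does not separate it from Cplx1. The ratio of BuOE with radiation over PBS with radiation sets both values. Its interval was -5.06 to -2.64 for Cplx1 and -4.10 to -2.92 for Rab3c. Syt4, a synaptotagmin of dense-core vesicles, had 3.75 CPM with BuOE and radiation, 20.0 with PBS and radiation, 65.7 with BuOE and 1.19 with PBS. Sv2c, a vesicle glycoprotein, had 2.35 CPM with BuOE and radiation, 14.9 with PBS and radiation, 60.4 with BuOE and 1.98 with PBS. Rab3c and Syt4 were higher in the BuOE-with-radiation library than in the PBS library, and Sv2c was not separated between these libraries (ratio 0.24, -0.31 to 0.80). Syp, synaptophysin of the vesicle membrane, had 2.22 CPM in the BuOE-with-radiation library, 9.66 in the PBS-with-radiation library, 30.4 in the BuOE library and 0.783 in the PBS library. Snap25, the SNARE of the plasma membrane, had 1.52 CPM with BuOE and radiation, 6.40 with PBS and radiation, 19.7 with BuOE and 0.988 with PBS. For both, the PBS-with-radiation library held about the same part of the BuOE level, with ratios of -1.65 (-1.84 to -1.48) for Syp and -1.61 (-1.85 to -1.40) for Snap25.

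The synapsins Syn1 and Syn2 differed in their radiation ratios. Syn2 had 1.89 CPM in the BuOE-with-radiation library, 9.21 in the PBS-with-radiation library, 25.3 in the BuOE library and 0.443 in the PBS library. Syn1 had 2.84 CPM with BuOE and radiation, 8.90 with PBS and radiation, 16.2 with BuOE and 3.30 with PBS. The radiation ratio in the PBS arm was 4.19 (3.58 to 5.30) for Syn2 and 1.41 (1.10 to 1.77) for Syn1. Syn1 overlaps the kinase gene Araf on the opposite strand, and Araf stood at 45.0 to 58.6 CPM in the 4 libraries. Syn2 overlaps Timp4, which stood at 0.443 to 1.62 CPM, and Ina and Gng3 overlap Nt5c2 (45.7 to 50.2 CPM) and Bscl2 (16.3 to 20.4 CPM). How much these neighbours add to the members was not tested. Vamp2, a vesicle SNARE that many cell types express, was the exception of its role, with 37.8 CPM in the BuOE-with-radiation library, 37.9 in the PBS-with-radiation library, 67.2 in the BuOE library and 30.0 in the PBS library. It passed 2-fold for BuOE over PBS alone (1.16, 1.05 to 1.28).

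Dense-core granules carry peptides rather than classical transmitters. Scg2, secretogranin II, had 2.30 CPM in the BuOE-with-radiation library, 8.20 in the PBS-with-radiation library, 12.3 in the BuOE library and 1.29 in the PBS library. Chga, chromogranin A, had 0.288 CPM with BuOE and radiation, 1.01 with PBS and radiation, 2.31 with BuOE and 0.170 with PBS, on at most 70 counts. Among the 22 members of the shared order, Scg2 had the ratio of PBS with radiation over BuOE nearest to 0 (-0.58, -0.81 to -0.36).

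Members of excitability, signalling and transport included 1 that ran apart. Scn9a, a sodium channel of peripheral sensory and sympathetic neurons, had 1.61 CPM in the BuOE-with-radiation library, 6.32 in the PBS-with-radiation library, 17.3 in the BuOE library and 0.375 in the PBS library. Scn3a, a sodium channel best known from developing neurons, had 1.52 CPM with BuOE and radiation, 2.69 with PBS and radiation, 4.91 with BuOE and 1.46 with PBS, so the BuOE-with-radiation and PBS libraries did not separate (ratio 0.05, -0.62 to 0.72). Gng3, a G protein gamma subunit of neurons, had 0.370 CPM with BuOE and radiation, 2.11 with PBS and radiation, 7.59 with BuOE and 0.204 with PBS. Scn9a and Gng3 shared the order of the 22, and Scn3a did not. Slc7a14, a lysosomal transporter of cationic amino acids, had 1.15 CPM in the BuOE-with-radiation library, 9.32 in the PBS-with-radiation library, 30.8 in the BuOE library and 0.238 in the PBS library. Vat1l had 5.60 CPM with BuOE and radiation, 31.2 with PBS and radiation, 67.3 with BuOE and 1.46 with PBS. The radiation ratios of Slc7a14 were 4.94 (4.23 to 6.61) in the PBS arm and -4.66 (-5.34 to -4.20) in the BuOE arm.

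Unc5c, a netrin receptor that repels growing axons, was the exception. It had 3.99 CPM in the BuOE-with-radiation library, 24.5 in the PBS-with-radiation library, 11.3 in the BuOE library and 21.3 in the PBS library, so it was high in both PBS libraries and low in both BuOE libraries. The BuOE ratio was -0.91 (-1.11 to -0.72) without radiation and -2.60 (-2.94 to -2.31) with it. Of the 6 measured netrin receptors and ligands, Unc5c included, 1 had a ratio above 0 for BuOE over PBS and 1 for BuOE with radiation over PBS with radiation. The most abundant of that list were Unc5b, Neo1 and Ntn1, and each was highest in the PBS library without radiation.

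Counts of members are set here beside the share of all 14365 measured genes that passed the same limit. The choice of members fixed part of these counts, and some members reached the mean of 1 CPM only through their high libraries, so the counts are a description. For PBS with radiation over PBS, 25 of 32 members were at least 2-fold higher (5.62% of all genes) and 1, Nefm, was at least 2-fold lower (1.02%). The median ratio of the members was 2.75 against 0.00 for all genes, and 22 members passed 4-fold (1.61%). For BuOE with radiation over BuOE, none was higher (2.27%) and 28 were lower (4.94%), with a median of -3.62 against -0.03 for all genes, and 23 were lower by 4-fold (1.68%). The radiation ratio passed 2-fold upward in the PBS arm and 2-fold downward in the BuOE arm for 24 members, and for 280 of all genes (1.95%).

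For BuOE over PBS, 27 members were higher (8.72%) and none was lower (4.23%), the median was 4.85 against -0.01 for all genes, and 24 passed 4-fold (2.78%). For BuOE with radiation over PBS with radiation, 1 member, Rbfox3, was higher (3.81%) and 23 were lower (5.92%). The median there was -2.01 against -0.07, and 16 members were lower by 4-fold (0.933%). These comparisons share libraries, so their counts are not independent of one another.

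**Figure D2:**
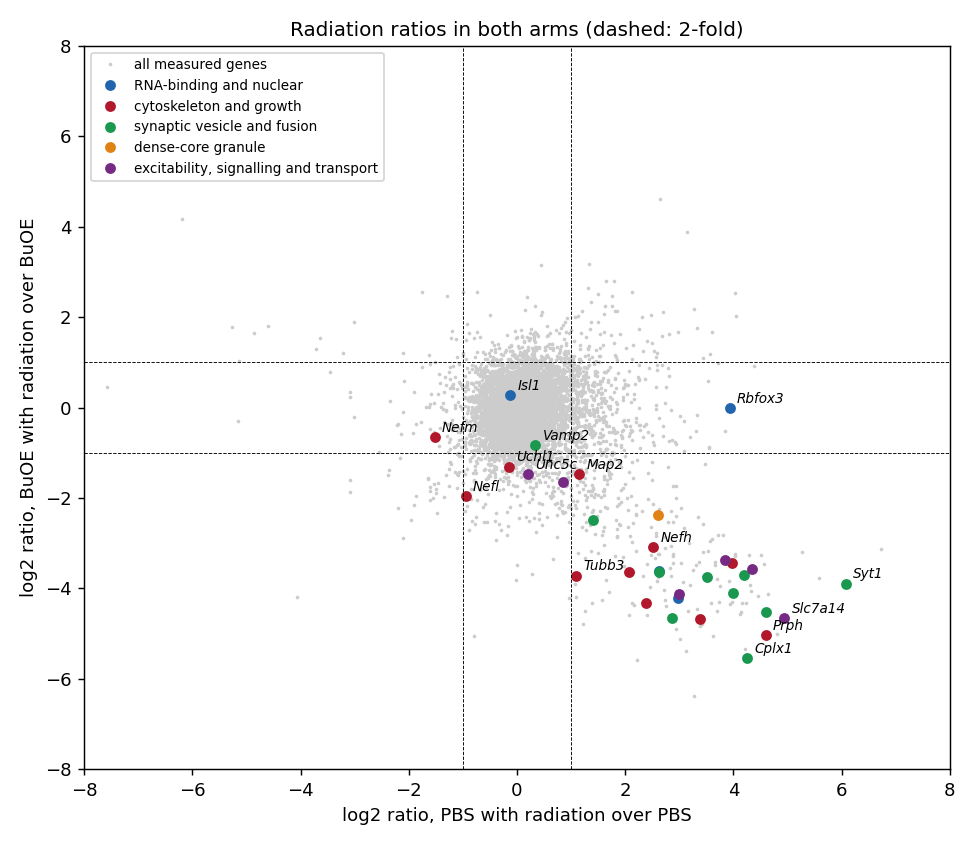
Log2 ratio of PBS with radiation over PBS (x axis) and of BuOE with radiation over BuOE (y axis) for all 14365 measured genes in grey and the 32 measured members in the colour of their role; dashed lines mark 2-fold. Most members lie at the lower right, with 24 past 2-fold in both arms, while Isl1 lies near 0 in both and Rbfox3 at 3.93 (a value that rests on the prior count, since its PBS count is 0) and -0.01.

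The 2 libraries with high levels were also set against each other. For PBS with radiation over BuOE, 1 member, Unc5c, was at least 2-fold higher (3.24% of all genes) and 24 were at least 2-fold lower (3.97%), with a median of -1.61 against 0.02 for all genes. Among the 22 members with the shared order the ratio ran between -2.62 (Ina) and -0.58 (Scg2), with a median of -1.64, and no interval held 0. Several synaptic and axonal genes lay close together: Syt4 at -1.71, Syp at -1.65, Gap43 at -1.63, Syt1 at -1.62 and Snap25 at -1.61. Cplx1 (-2.10, -2.41 to -1.84) and Rab3c (-1.12, -1.30 to -0.96) lay apart from each other beyond counting error, although both headed the shared order.

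**Figure D3:**
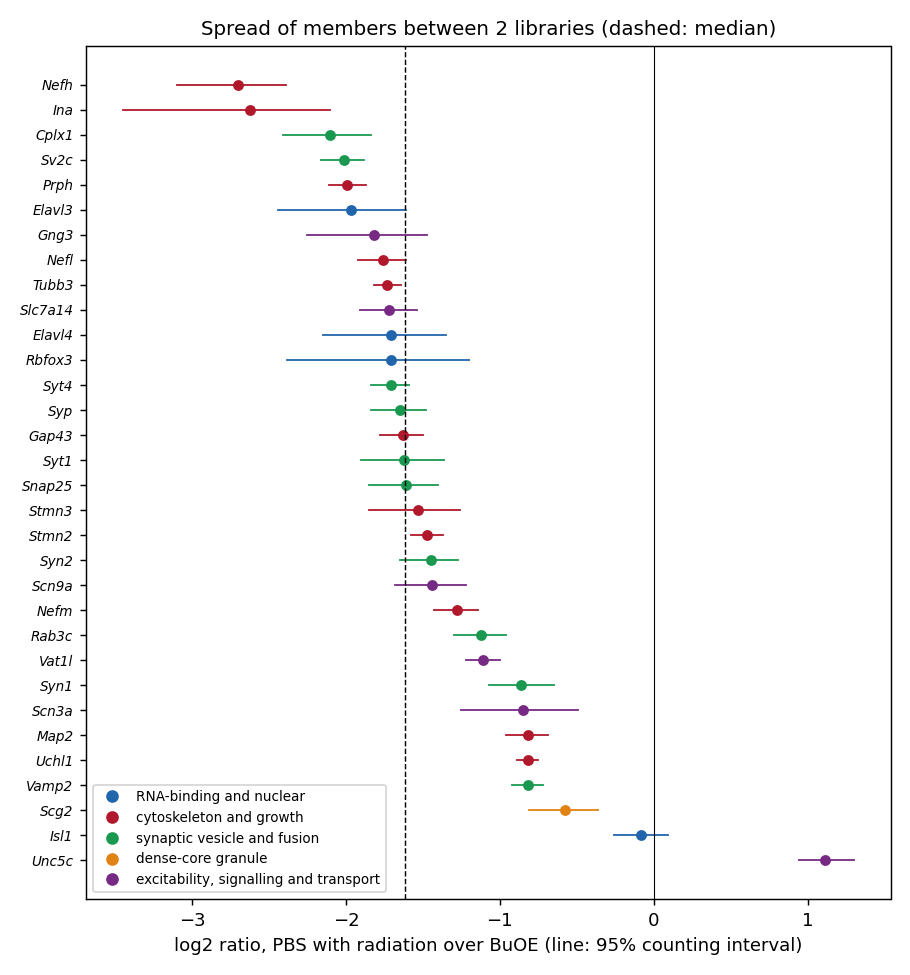
Log2 ratio of PBS with radiation over BuOE for each of the 32 measured members, with exact 95% counting intervals, coloured by role and sorted; the dashed line is the members' median of -1.61. All members but Unc5c (1.11) lie below 0, and the interval of Isl1 holds 0.

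The 2 libraries with low levels did not match either. For BuOE with radiation over PBS, 13 members were at least 2-fold higher (9.14% of all genes) and 2, Nefl and Unc5c, were at least 2-fold lower (6.27%). The median was 0.73 against -0.05 for all genes, and 11 of the 32 intervals held 0. Rbfox3 and Syt1, without a count in the PBS library, had the highest ratios. Next came Nefh (2.14, 1.33 to 3.50), Stmn2 (2.03, 1.61 to 2.55), Slc7a14 (2.00, 1.04 to 3.71) and Syn2 (1.94, 1.18 to 3.11). Among the 22 members with the shared order, 10 intervals held 0.

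Whether the members' order extended to other neuronal genes was looked at in lists of the same roles and in lists of autonomic, sensory and central neuron genes. Of 108 measured neuronal genes outside the members, 33 had the order of the 22, beside 1.24% of all genes. The lists were chosen with earlier results of these data known. Some of their genes reached a mean of 1 CPM only through their high libraries, so these counts are a description. Among 24 other synaptic genes, 10 were higher and 1 lower in the PBS arm, and 0 were higher and 14 lower in the BuOE arm. Nsf and Dnm1, abundant genes of the list, serve vesicle traffic in many cell types and stayed within 2-fold in both arms, as Vamp2 did. Among 19 other cytoskeleton genes, 8 were higher in the PBS arm and 12 lower in the BuOE arm. The most abundant of them, Map1b, Dpysl3 and Ank3, stayed within 2-fold in the PBS arm (0.23, 0.23 and 0.22). In the BuOE arm Map1b was lower (-1.16), while Dpysl3 (-0.85) and Ank3 (-0.91) stayed within 2-fold. Among 12 other dense-core granule genes, 9 were higher in the PBS arm and 10 lower in the BuOE arm, as Scg2 was. The most abundant, Cpe, Pam and Ptprn, were not among those higher in the PBS arm (0.68, 0.33 and 0.03). In the BuOE arm Ptprn was lower (-1.26), but Cpe (0.46) and Pam (-0.06) were not. Cpe was highest with BuOE and radiation (462 CPM). Among 9 other neuronal RNA-binding genes, 5 were higher in the PBS arm and 6 lower in the BuOE arm, as Elavl3 and Elavl4 were. The most abundant were Khdrbs3, Celf4 and Nova2. Khdrbs3 stayed within 2-fold in both arms (0.01 and -0.27). Celf4 was lower in the BuOE arm alone (-1.46), and Nova2 was higher in the PBS arm alone (1.37).

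Of 19 other channel genes, 10 were higher in the PBS arm and 12 lower in the BuOE arm. The most abundant were Kcna2, Kcna1 and Kcnh2. In the PBS arm Kcna2 (3.52) and Kcna1 (2.56) were higher and Kcnh2 (-0.77) was not. None of them was lower by 2-fold in the BuOE arm (0.60, 0.05 and -0.29). The axonal potassium channel gene Kcna2 ran apart from the sodium channel members, with 30.6 CPM with BuOE and radiation, 19.5 with PBS and radiation, 20.2 with BuOE and 1.63 with PBS. Like Rbfox3, it was lowest in the PBS library and not lower with BuOE and radiation than with BuOE. Autonomic neuron genes, led by Npy, Gata2 and Vip, summed to 337 CPM with BuOE and radiation, 334 with PBS and radiation, 832 with BuOE and 172 with PBS. Of the 17 measured, 14 were at least 2-fold higher and 0 lower in the PBS arm, and 0 were higher and 12 lower in the BuOE arm. For BuOE with radiation over PBS with radiation, 11 were lower and 1, Npy, was higher (141 against 57.8 CPM). Npy takes a large part of the sum with BuOE and radiation, so the near-equal sums of the irradiated libraries do not describe most genes of the list. The sensory neuron genes Prdm12 and Mrgprd and the cortical neuron genes Neurod2 and Neurod6 had no count in any library. Of the sensory neuron list 5 of 11 matched genes were measured (led by Runx1, Avil and Calcb), and of the central neuron list 3 of 12, Camk2a and Gad1 among them.

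By likeness to the order of the 22, the 15 genes outside the members with a mean of at least 10 CPM were led by Vip (2.46), Avil (2.27), Nos1 (2.23), Kif5a (2.02) and Add2 (1.85), over 4 libraries. They were followed by Eef1a2, Disp2, Pirt, Akap6, Spink1, Gdf10, Chl1, Greb1, Olfml2a and Igfbp5 (1.76 to 1.08). Vip, a peptide of parasympathetic neurons, had 5.97 CPM with BuOE and radiation, 33.2 with PBS and radiation, 199 with BuOE and 2.62 with PBS. Its ratio of PBS with radiation over BuOE was -2.58, near the lowest members in that comparison, Nefh and Ina. Igfbp5, a secreted binding protein, had 810.1 CPM with BuOE and radiation, 1714 with PBS and radiation, 2103 with BuOE and 639 with PBS. Of the 178 genes with the order, 119 were on none of the lists.

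Genes of other cells in nerves and tissue are given beside the members. All 14 Schwann and glial genes, led by Erbb3, Ngfr and Mbp, were measured, and they summed to 376 CPM with BuOE and radiation, 405 with PBS and radiation, 639 with BuOE and 192 with PBS. In the PBS arm 10 of them were higher and none lower, and in the BuOE arm none was higher and 5 were lower. Their sum with BuOE and radiation was thus close to that with PBS and radiation, while the members' sum was 229 CPM with BuOE and radiation and 475 with PBS and radiation. For BuOE with radiation over PBS with radiation, 4 of the 14 had a ratio above 0 and 2 were lower by 2-fold. The median of the 14 was -0.39 against -0.07 for all genes. Mbp (72.6 against 39.5 CPM) and Mal (63.2 against 47.3 CPM) were among the 4, so the near-equal sums do not describe most genes of the list. Neurotrophic receptors, led by Ngfr, Sort1 and Ret, summed to 207 CPM with BuOE and radiation, 248 with PBS and radiation, 507 with BuOE and 154 with PBS. Neurotrophic factors, Lif and Nrg1 among them, summed to 373 CPM with BuOE and radiation, 280.1 with PBS and radiation, 341 with BuOE and 215 with PBS.

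The REST repressor complex, led by Rest, Ehmt2 and Kdm1a, summed to 869 CPM with BuOE and radiation, 983 with PBS and radiation, 939.7 with BuOE and 990.4 with PBS. Rest itself stayed within 126 to 159 CPM in the 4 libraries. Of the 10 genes of that list 1, Hdac1, was at least 2-fold lower for BuOE with radiation over PBS (-1.03, 58.2 against 118 CPM), beside 6.27% of all genes. Neuroendocrine regulators, led by Prox1 and Tph1, summed to 9.27 to 17.2 CPM, with Neurod1 at no count in any library. Adipocyte markers summed to 224 CPM with BuOE and radiation, 196 with PBS and radiation, 178 with BuOE and 574 with PBS. Endothelial markers summed to 675 CPM with BuOE and radiation, 749 with PBS and radiation, 612 with BuOE and 442 with PBS; of 9, 5 were at least 2-fold higher for PBS with radiation over PBS and 3 for BuOE over PBS. Mural markers summed to 1013 CPM with BuOE and radiation, 1404 with PBS and radiation, 1095 with BuOE and 1219 with PBS; of 10, 5 were higher for PBS with radiation over PBS, and 7 were higher and 1 lower for BuOE over PBS. For BuOE with radiation over BuOE, no gene of these 2 lists passed 2-fold in either direction, while 28 of 32 members were lower. Prostate secretory genes summed to 1615 CPM with BuOE and radiation, 1184 with PBS and radiation, 1303 with BuOE and 985 with PBS; of 10, 8 were higher for PBS with radiation over PBS, 9 were higher for BuOE over PBS, and 4 were higher and 2 lower for BuOE with radiation over BuOE. Macrophage markers stayed within 2-fold in these comparisons. Skeletal muscle markers, 4 of 8 measured, summed to 2.55 CPM with BuOE and radiation, 19.2 with PBS and radiation, 2.01 with BuOE and 13.9 with PBS. The part of any of these cells, or of the share of mitochondrial counts, in the members' levels was not tested.

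**Figure D4:**
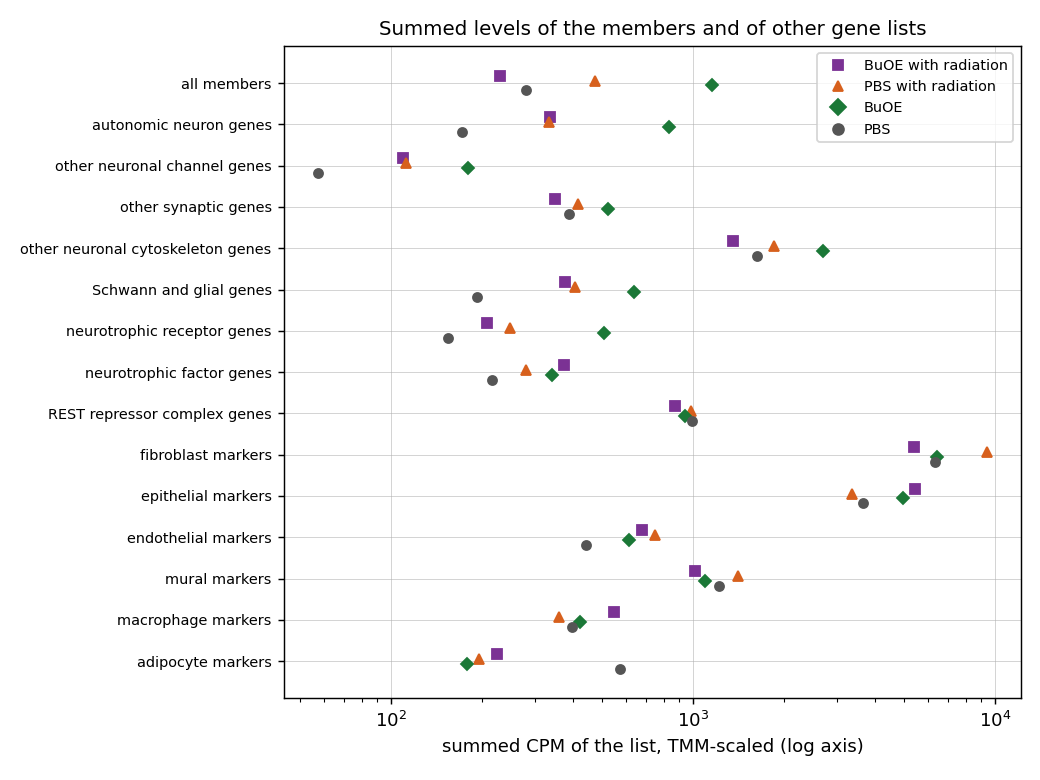
Summed TMM-scaled CPM of the members and of 14 other gene lists in each library, on a log axis. The members' sum is 1159 with BuOE and 475 with PBS and radiation, the autonomic and Schwann lists are also highest with BuOE, and the REST complex list stays within 869 to 990.4.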

How the data were processed

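RNA of 4 cultures was sequenced in bulk, 1 library per condition, and groups were taken from the treatment in the labels. The files hold unnormalised counts per gene, as deposited. Per the submitters' processing notes the counter was featureCounts and the build GRCm39. Trim Galore 0.6.4, FastQC, Salmon 1.4.0 and edgeR 4.2.2 are listed there with no stated role. Strand and multimapping settings are not given in the sources used here. No sample column was left unused (0).

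Symbols, transcript lengths and overlaps came from GENCODE M21, which uses GRCm38, by Ensembl gene ID; 4675 of 56748 IDs had no symbol and stayed in the totals. TMM factors (edgeR 4.0.16, R 4.3.3) were 0.972 for BuOE with radiation, 0.992 for PBS with radiation, 1.05 for BuOE and 0.987 for PBS. A mean of 1 CPM over the libraries was the filter, ratios used a prior count of 2, and intervals are exact binomial 95% (scipy 1.17.1), covering counting error only. With 1 library per group no test was possible. The floor of 3 counts equals 0.123 CPM with BuOE and radiation, 0.0842 with PBS and radiation, 0.0990 with BuOE and 0.102 with PBS. Levels per kilobase used the longest transcript. The steps were tested on simulated data.

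The members and lists were chosen with earlier results of these data known, and some members were picked for high values in 2 of these libraries. All members are accounted for. Of each context list the 3 measured genes with the highest mean CPM were to be named, with any whose value a sentence turns on, and some genes that this rule names are left out here; outside the members, the 15 most similar genes with a mean from 10 CPM upward were named, without gene models and pseudogenes. The CRE was searched after the values were seen. Alternatives were other scalings (DESeq2 1.42.0 size factors, library size alone, upper quartile), filters, a prior count of 0.5, a 4-fold limit, the nearer interval bound, totals without mitochondrial genes and mean transcript length.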

Additional observations from a re-analysis of the deposited data

Results flagged for a closer look

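The difference between the radiation ratios of the BuOE arm and of the PBS arm is singled out for 24 of the 32 measured members, because their ratio passed 2-fold upward in the PBS arm and 2-fold downward in the BuOE arm. With 1 library in each condition this difference was not tested, and some members were picked for that pattern. The value given is the log2 radiation ratio of the BuOE arm minus that of the PBS arm. It was largest in size for Syt1 (-9.98), Cplx1 (-9.79), Prph (-9.64), Slc7a14 (-9.61) and Rab3c (-9.13). Next came Syt4 (-8.11), Stmn3 (-8.06), Vat1l (-7.92), Syn2 (-7.88) and Sv2c (-7.52). A middle range held Stmn2 (-7.40), Syp (-7.25), Scn9a (-7.23), Elavl3 (-7.18), Gng3 (-7.13), Gap43 (-6.71), Snap25 (-6.25) and Elavl4 (-6.23). It was smaller in size for Ina (-5.70), Nefh (-5.61), Scg2 (-4.98), Tubb3 (-4.81), Syn1 (-3.89) and Map2 (-2.61). The value of Syt1 depends on the prior count, since Syt1 had no count in the PBS library.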

How the results depend on the processing

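No paired analysis was possible because each group has 1 library. Of 836 member ratios recomputed under other settings, 830 moved by less than their counting interval, 6 moved by more, and those that changed sign (6, of Vamp2, Isl1 and Rbfox3) lay between 0.02 and 0.13 afterwards. Scaling moved the summed CPM. The BuOE-with-radiation sum was 222 with library size alone, 243 with upper-quartile factors and 235 with mitochondrial genes out of the totals. The PBS-with-radiation sum was 467 with DESeq2 size factors and 459.8 with upper-quartile factors, and the BuOE sum 1218 with library size alone and 1138 with upper-quartile factors. Library size alone shifted the median of all genes to -0.15 for BuOE with radiation over BuOE. A filter at a mean of 10 CPM left 17 members. Of these, 11 were higher for PBS with radiation over PBS, 14 lower for BuOE with radiation over BuOE, 12 higher for BuOE over PBS with a median of 4.02, and 0 higher and 11 lower for BuOE with radiation over PBS with radiation; fewer members pass that filter. At the 4-fold limit, 0 members were lower for PBS with radiation over PBS and 0 higher for BuOE with radiation over PBS with radiation. By the nearer interval bound, Tubb3 (0.95), Map2 (0.96) and Ina (0.93) fell short of 2-fold for PBS with radiation over PBS. Ina also fell short for BuOE with radiation over PBS with radiation (bound 0.10). Tubb3 and Ina then leave the shared order of the 22, and Tubb3, Map2 and Ina leave the 24 past 2-fold in both arms. With mean transcript length, 79 of 128 levels per kilobase moved by more than their counting interval. Depth limits members with few counts in the low libraries, such as Ina, Cplx1, Elavl3 and Gng3. With 1 library per group, leaving one out leaves no value for the comparisons that use it, and spread between animals or cultures is unknown.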

Other observations

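Transmitter genes that autonomic neurons use spread widely beside the members, and are described here after their values were seen. For PBS with radiation over BuOE, the ratio was -3.14 for Nos1, the neuronal nitric oxide synthase, and -3.60 for Slc18a3, the vesicular acetylcholine transporter. Both lie below the range of the 22 members with the shared order (-2.62 to -0.58). Ina alone sets the low end of that range, and the next member is Cplx1 (-2.10). Between Ina and Cplx1 lay the choline transporter Slc5a7 (-2.53) and the peptide gene Vip (-2.58). Chat, the acetylcholine-synthesising enzyme, lay there too (-2.25), on few counts and under the filter of 1 CPM. Npy, the most abundant gene of the autonomic list and a peptide gene too, also lay inside the range (-1.13). Th, the first enzyme of noradrenaline synthesis, lay above that range (0.89), with 0.370 CPM with BuOE and radiation, 7.02 with PBS and radiation, 3.76 with BuOE and no count with PBS. Ddc, the next enzyme, was at 0.89 too, and Slc18a2, the vesicular monoamine transporter, at 1.09. Its relative Slc18a1, on few counts and under the filter, was at 0.02. Dbh, which makes noradrenaline (-0.37), and Slc6a2, the noradrenaline transporter (-0.32), were also above the range but nearer to even. Each value rests on 1 library per condition.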
